A study of Mus musculus with 6 samples.

Results

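The genes described here build and break down glycogen in mouse liver. They are 9 genes chosen by name for their roles. These were Ugp2, Gyg, Gys2 and Gbe1 of synthesis, Pygl and Phka2 of breakdown, and Ppp1r3b, Ppp1r3c and Ppp1r3g, which encode subunits that bring protein phosphatase 1 to glycogen. All 9 had counts, among 18452 genes with any count in the series, and all 9 passed the filter on low counts that left 13430 genes to test.

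Liver RNA was sequenced from 6 male Mettl14f/f mice on HFD, a high-fat diet that began at 8 weeks of age. After 10 weeks of HFD, 3 mice received AAV8-TBG-Cre and 3 received AAV8-TBG-GFP through the tail vein, and RNA was taken 8 weeks later. Both groups thus carried the floxed Mettl14 alleles, an AAV8 vector and the same diet. AAV8-TBG is an adeno-associated virus whose thyroxine-binding globulin promoter is active in hepatocytes, so Cre can delete Mettl14 there, while other liver cells keep the gene; GFP is the control, and the labels give the genotypes as METTL14 KO and WT. METTL14 is a subunit of the enzyme complex that methylates adenosines in mRNA to m6A. The comparison of vectors asks which liver mRNAs differ when hepatocyte Mettl14 is targeted. The 3 livers of each group are called GFP 1, GFP 2 and GFP 3 (control livers) and Cre 1, Cre 2 and Cre 3 (Cre livers) after their replicate numbers.

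Glycogen is the store of glucose in the liver, filled after meals and emptied during fasting to supply the blood. UDP-glucose is added to a growing chain by glycogen synthase, starting from the self-glucosylating protein glycogenin, and the branching enzyme moves stretches of the chain to form branches. Glycogen phosphorylase releases glucose-1-phosphate and is switched on by phosphorylase kinase, whereas protein phosphatase 1, held on the particle by its targeting subunits, turns synthase on and phosphorylase off.

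Total expected counts lay between 20356410 and 21010490 per library. CPM here is a count scaled by library size with TMM factors, which set libraries on a common scale through genes that differ little. FPKM also divides by transcript length and was used to compare genes with each other. The targeted gene Mettl14 had 6.30, 6.43 and 5.81 CPM in GFP 1, GFP 2 and GFP 3 and 4.96, 5.38 and 4.86 CPM in Cre 1, Cre 2 and Cre 3 (log2 fold change -0.29, standard error 0.15, edgeR adjusted p = 0.336), and its highest FPKM, 2.40, was that of Cre 2. Livers are therefore called by their labels. GFP 1 and GFP 2 and Cre 1 have short library names and the other 3 libraries long ones, a difference that the sources used here do not explain. The 6 hepatocyte markers summed to between 90416 and 110271 CPM in control livers and between 77840 and 96254 CPM in Cre livers. They did not move together, with log2 fold changes positive for 2 and negative for 4. At a fold of 1.2 or more and an unadjusted p-value below 0.05 in edgeR, 1 was higher and 1 lower. Of all genes tested, 12.0% were higher and 8.41% lower by that measure. In bulk liver, fewer hepatocytes and less of an mRNA per hepatocyte cannot be told apart.

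Promoter sequences of 7 of the 9 genes were matched in a RefSeq table of build GRCm38.p6, which lists 250 bases before and 50 bases after each start. Gys2 and Ppp1r3b were not matched. The sequences of Pygl, Gbe1 and Ugp2, at the outer of 2 listed starts, are shown because their values were low in the same livers. Those livers were GFP 3, Cre 2 and Cre 3, the libraries with long names. That of Ppp1r3c is shown because its level varied widely among control livers. Capitals mark a cAMP response element half-site in Pygl (CGTCA on the strand shown) and an E-box in Ppp1r3c.
Pygl, chr12:70227634-70227933, minus strand: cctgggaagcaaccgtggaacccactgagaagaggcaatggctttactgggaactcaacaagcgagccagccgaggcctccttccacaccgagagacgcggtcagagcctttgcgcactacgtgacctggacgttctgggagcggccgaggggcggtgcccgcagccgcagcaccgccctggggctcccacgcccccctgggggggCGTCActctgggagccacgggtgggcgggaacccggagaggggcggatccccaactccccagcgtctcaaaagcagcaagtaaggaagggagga
Gbe1, chr16:70313699-70313998, plus strand: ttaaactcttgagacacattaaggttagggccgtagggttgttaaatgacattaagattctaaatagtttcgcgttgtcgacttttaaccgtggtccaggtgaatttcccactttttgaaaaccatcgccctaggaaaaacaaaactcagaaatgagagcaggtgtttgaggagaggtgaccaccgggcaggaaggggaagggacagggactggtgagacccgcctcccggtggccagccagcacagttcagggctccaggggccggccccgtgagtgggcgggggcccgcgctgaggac
Ugp2, chr11:21371218-21371517, minus strand: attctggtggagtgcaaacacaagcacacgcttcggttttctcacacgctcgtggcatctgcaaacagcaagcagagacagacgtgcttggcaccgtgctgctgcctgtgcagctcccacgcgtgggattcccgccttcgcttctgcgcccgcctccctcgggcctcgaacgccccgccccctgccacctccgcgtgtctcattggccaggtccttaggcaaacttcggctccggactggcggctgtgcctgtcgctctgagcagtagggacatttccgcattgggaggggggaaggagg
Ppp1r3c, chr19:36736555-36736854, minus strand: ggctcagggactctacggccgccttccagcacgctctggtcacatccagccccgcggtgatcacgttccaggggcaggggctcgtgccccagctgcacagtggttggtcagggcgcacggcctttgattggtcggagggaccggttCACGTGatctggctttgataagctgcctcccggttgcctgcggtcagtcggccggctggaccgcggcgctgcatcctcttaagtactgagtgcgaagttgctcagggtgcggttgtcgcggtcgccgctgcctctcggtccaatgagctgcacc
The letters CACGTG (E-box), TGACG (half-site of the cAMP response element) and GTAAACA (FOXO site) were searched on both strands. The 9 genes had 8 promoters in the table. CACGTG was in 2 of the 8, at position -104 of Ppp1r3c and 9 of Gyg, given for the first base on the strand of the gene with the start as 1, against 7.15% of all 32851 promoters of this length. TGACG was in 3 of the 8, at position -44 of Pygl, -40 of Ppp1r3g and 13 of Gyg, where it overlaps the E-box, against 20.8% of all promoters. GTAAACA was in 0 of the 8 and in 3.65% of all. The promoters of the glycogen genes had a median GC content of 63.8%, against 52.7% for all promoters. A match of letters does not show that a factor binds there.

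Gbe1 and Ppp1r3b were lower in Cre than in control livers at the threshold of the study, a fold change of 1.2 or more with an unadjusted p-value below 0.05. Gbe1, the branching enzyme gene, was at 49.6% of its control level, and Ppp1r3b, which encodes the main targeting subunit of liver, at 76.1%. No member was higher at that threshold. The count of 2 of 9 lower genes stands against 8.41% of the 13430 genes tested, and 0 of 9 higher genes (0 also in DESeq2) against 12.0%. By edgeR's quasi-likelihood test with Benjamini-Hochberg adjustment over all genes, 0 of 9 members passed an adjusted p-value of 0.05, against 0.931% of all genes, while DESeq2 called 2 by its adjusted p-value, Gbe1 (0.0492) and Ppp1r3b (0.0196), against 7.44% of the genes to which it gave such a value. The log2 fold change was negative for 7 members and positive for 2, with a median of -0.39, whereas it was negative for 6849 and positive for 6581 of all genes tested, with a median of -0.01. The groups did not overlap in CPM for 1 of 9 members on the lower side, Ppp1r3b, and for 0 of 9 on the higher side, against 13.0% and 14.0% of all genes.

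**Figure D1:**
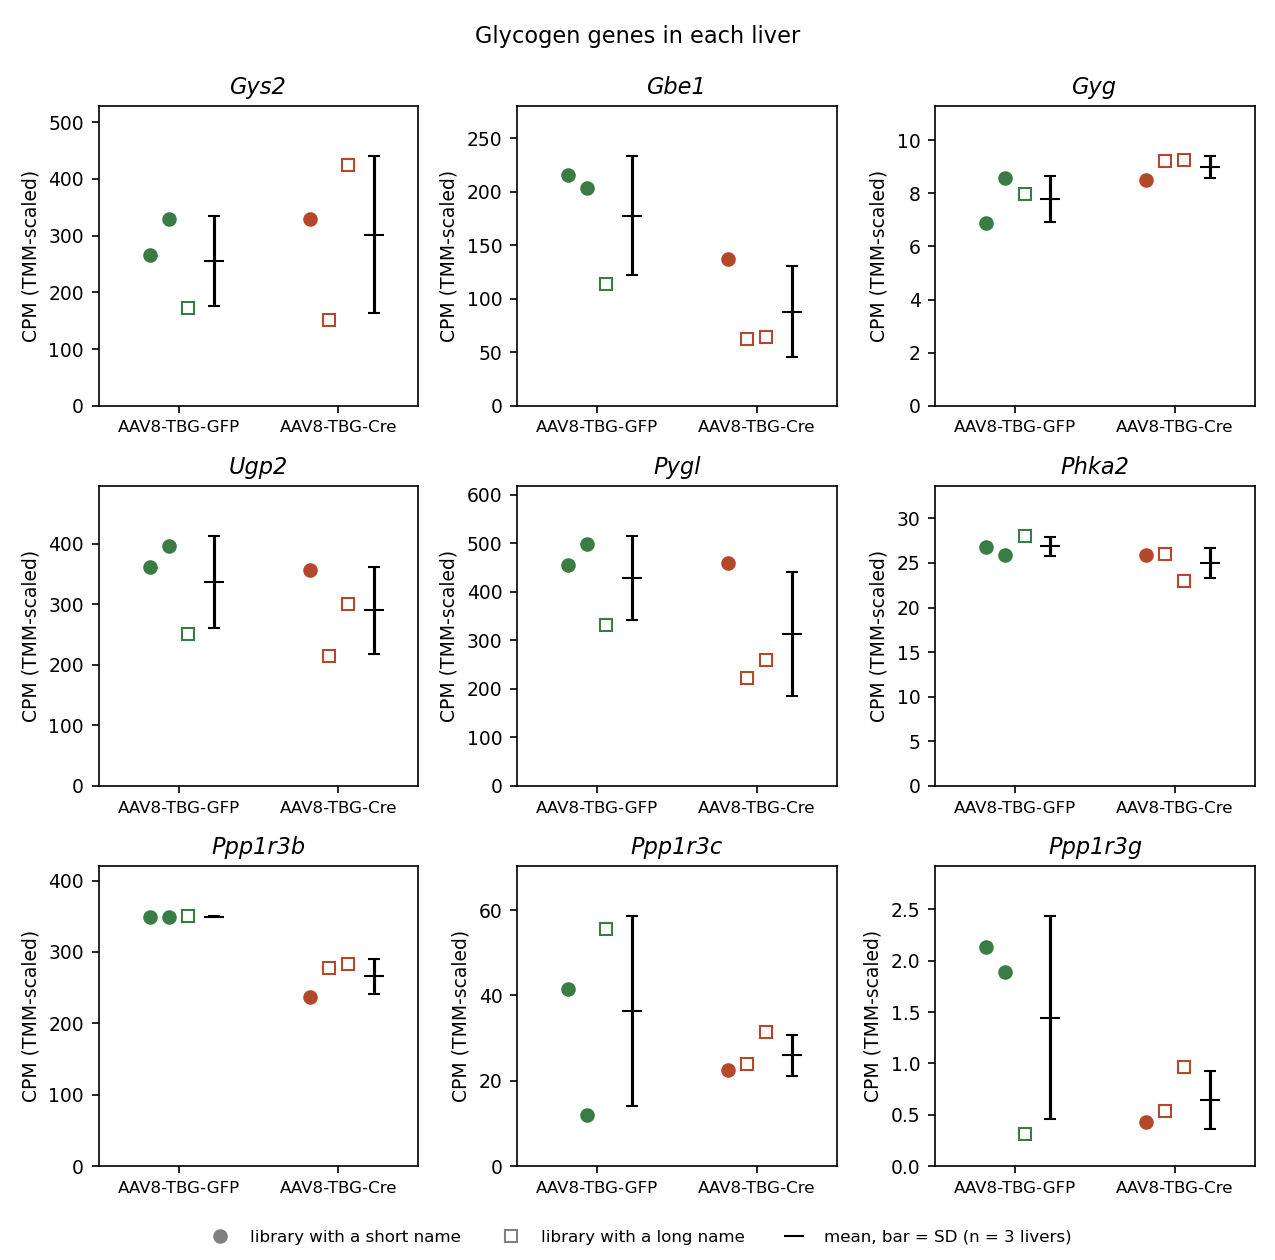
TMM-scaled CPM of the 9 glycogen genes in each of the 6 livers; filled circles are libraries with a short name, open squares libraries with a long name, and the black mark and bar the group mean and SD (n = 3 livers). Ppp1r3b is the 1 member whose groups do not overlap, and Gbe1, Pygl and Ugp2 are lower in every library with a long name than in any with a short name.

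The substrate of synthesis is made by Ugp2 (NCBI gene 216558, chromosome 11 from 21321126 to 21371267 in GRCm38.p6), UDP-glucose pyrophosphorylase. Its level was 362, 397 and 251 CPM in GFP 1, GFP 2 and GFP 3, and 356, 214 and 301 CPM in Cre 1, Cre 2 and Cre 3. The groups overlapped, and Cre 2 and GFP 3 were the lowest livers. The means were 337 ± 76.2 (SD, n = 3 livers) and 290 ± 71.6 CPM (SD, n = 3). The log2 fold change was -0.21 (95% interval -0.76 to 0.34, edgeR adjusted p = 0.655). Every long-named library was below every short-named one. Within short-named libraries the log2 ratio of the means was -0.09, and within long-named ones 0.04. A fit that held the name form as a covariate gave -0.03 (edgeR adjusted p = 0.944). Of its 2 transcripts in the files, NM_139297 took 84.3% to 85.8% of the Ugp2 counts in control livers and 78.1% to 86.2% in Cre livers, so the major transcript was the same in every liver.

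Gyg (NCBI gene 27357, chromosome 3 from 20122083 to 20155117), which encodes glycogenin, was among the scarce members. It had 6.86, 8.57 and 7.96 CPM in control livers and 8.49, 9.20 and 9.24 CPM in Cre livers. GFP 2 lay just above Cre 1, so the groups overlapped. The log2 fold change was 0.20 (95% interval -0.13 to 0.54, edgeR adjusted p = 0.467). In FPKM the groups did not overlap, with 3.82, 4.70 and 4.19 in control and 5.00, 6.25 and 5.27 in Cre livers, as for 23.1% of all genes tested on FPKM, against 14.0% on the higher side in CPM. Gyg passed the threshold as higher in the 3 limma fits on FPKM, which called 15.5% of all genes higher with a pseudocount of 1, 16.4% with 0.1 and 10.9% with no filter, and in no fit on counts.

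Gys2 (NCBI gene 232493, chromosome 6 from 142422612 to 142473130) encodes the liver isozyme of glycogen synthase and had the largest SD of all members in the Cre group. The control livers had 265, 330 and 172 CPM, and the Cre livers 330, 151 and 424 CPM. The highest and the lowest of the 6 livers were both Cre livers. Means were 256 ± 79.2 (SD, n = 3) and 302 ± 139 CPM (SD, n = 3), and the log2 fold change of 0.24 (95% interval -0.65 to 1.12, edgeR adjusted p = 0.766) lay within this spread. It was -0.09 without Cre 3, the only liver whose omission turned its sign, and 0.007 without GFP 3.

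The branching enzyme gene Gbe1 (NCBI gene 74185, chromosome 16 from 70313949 to 70569720) had 216, 203 and 114 CPM in control livers. In Cre livers it had 138, 62.1 and 64.8 CPM. Cre 2 and Cre 3 lay below all other livers, whereas Cre 1 was above GFP 3. The mean was 178 ± 55.6 CPM (SD, n = 3) in control and 88.2 ± 42.9 CPM (SD, n = 3) in Cre livers, a log2 fold change of -1.01 (standard error 0.36, 95% interval -1.85 to -0.17, unadjusted p = 0.0242 and adjusted p = 0.174 from edgeR). Across the alternatives the adjusted p-value ranged from 0.0307 to 0.424. Gbe1 was no longer past the threshold without GFP 1 (log2 fold change -0.86), GFP 2 (-0.91), Cre 2 (-0.82) or Cre 3 (-0.84), and without Cre 1 the log2 fold change was -1.49 (edgeR adjusted p = 0.0325). Within short-named libraries the log2 ratio of the means was -0.61, within long-named ones -0.85, and a fit that held the name form as a covariate gave -0.73 (edgeR adjusted p = 0.0307).

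Of the breakdown genes, Pygl (NCBI gene 110095, chromosome 12 from 70190815 to 70227683) encodes liver glycogen phosphorylase and had the highest mean CPM of all members. Control livers had 456, 498 and 332 CPM, and Cre livers 459, 222 and 260 CPM. Cre 1 was level with the higher control livers, and Cre 2 and Cre 3 lay below all 3 controls. The means were 429 ± 86.0 (SD, n = 3) and 314 ± 128 CPM (SD, n = 3), for a log2 fold change of -0.45 (95% interval -1.13 to 0.23, edgeR adjusted p = 0.427). Single livers moved this value both ways, to -0.83 without Cre 1 (unadjusted p = 0.00474 and adjusted p = 0.0552 from edgeR) and to -0.26 without Cre 2 (adjusted p = 0.752 from edgeR). The log2 ratio was -0.05 within short-named and -0.46 within long-named libraries.

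Phka2 (NCBI gene 110094, chromosome X from 160501904 to 160598879), the gene of the liver regulatory subunit of phosphorylase kinase, varied little between livers. Its levels were 26.8, 25.9 and 28.0 CPM in control livers and 25.9, 26.0 and 23.0 CPM in Cre livers. The groups overlapped, and the log2 fold change was -0.11 (95% interval -0.33 to 0.12, edgeR adjusted p = 0.581), a direction that turned to 0.07 when counts were scaled by library totals and to 0.06 or 0.07 on FPKM. Its counts were split among 3 transcripts. NM_172783 took 0, 17.8 and 26.1% of them in control livers and 2.88, 0 and 0% in Cre livers, so the groups overlapped. NM_001177879 took 45.7% to 46.6% in control and 50.0% to 63.9% in Cre livers. These are estimated shares of fragments that the transcripts have in common, and no test was made of them.

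Ppp1r3b (NCBI gene 244416, chromosome 8 from 35375694 to 35388139) encodes GL, the targeting subunit of protein phosphatase 1 that is abundant in liver. It had 349, 349 and 350 CPM in control livers and 237, 277 and 283 CPM in Cre livers. Every Cre liver was below every control liver (p = 0.1 in an exact permutation test, two-sided, the smallest value that 3 livers against 3 can give). The control livers were closer to each other than counting error alone would give, with an SD of 0.475 CPM where the counts alone give 4.21 to 4.28 CPM per liver. The mean fell from 349.5 to 266 ± 24.9 CPM (SD, n = 3), for a log2 fold change of -0.39 (standard error 0.12, 95% interval -0.68 to -0.11, unadjusted p = 0.0135 and adjusted p = 0.138 from edgeR, with adjusted values of 0.0196 to 0.369 over the alternatives). The difference stayed past the threshold without any 1 liver, and the log2 ratio was -0.56 within short-named and -0.32 within long-named libraries. It depended on the scaling, since without TMM factors the log2 fold change was -0.22 and not past the threshold, and in FPKM the groups overlapped at 78.9, 77.6 and 74.7 against 56.7, 76.3 and 65.5.

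Ppp1r3c (NCBI gene 53412, chromosome 19 from 36731731 to 36736604) encodes PTG, a targeting subunit made in many tissues. Its levels were 41.5, 12.0 and 55.5 CPM in control livers and 22.5, 24.0 and 31.4 CPM in Cre livers. All 3 Cre livers lay between the lowest and the other two control livers. The log2 fold change of -0.48 (95% interval -1.57 to 0.60, edgeR adjusted p = 0.601) was smaller than this spread among controls. Single controls moved it, to -0.90 without GFP 2, the low control (unadjusted p = 0.00243 and adjusted p = 0.190 from edgeR), and to -0.05 without GFP 3, the high one (adjusted p = 0.960 from edgeR). On FPKM it was -0.09 with a pseudocount of 1 and -0.07 with 0.1.

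Ppp1r3g (NCBI gene 76487, chromosome 13 from 35958824 to 35970388), a targeting subunit gene whose product acts in the liver after feeding, was the scarcest member. It had 42, 37 and 6 counts in control livers and 9, 13 and 20 counts in Cre livers. The lowest liver was GFP 3, although the other two controls were the highest of all. In CPM the means were 1.45 ± 0.988 (SD, n = 3) and 0.642 ± 0.283 (SD, n = 3), for a log2 fold change of -1.17 (95% interval -2.70 to 0.36, edgeR adjusted p = 0.358). It ranged from -0.79 without GFP 1 to -1.65 without GFP 3 (unadjusted p = 0.00614 and adjusted p = 0.161 from edgeR). The direction differed between name forms, with log2 ratios of -2.23 within short-named and 1.25 within long-named libraries.

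Levels of the members were compared with each other in FPKM, which allows for transcript length. In control livers the order of the means was Pygl (143 ± 31.7 FPKM, SD, n = 3), Ugp2 (112), Gys2 (90.1), Ppp1r3b (77.1), Gbe1 (56.0), Ppp1r3c (12.6), Phka2 (5.59), Gyg (4.24) and Ppp1r3g (0.593). Each of the first 3 overlapped its next neighbour in that order, as did Ppp1r3c and Phka2. In Cre livers Pygl (116 FPKM) and Gys2 (116 FPKM) had the same mean, followed by Ugp2 (107 FPKM), and these 3 overlapped. Ppp1r3b (66.2), Gbe1 (30.7), Ppp1r3c (10.1), Phka2 (5.91), Gyg (5.51) and Ppp1r3g (0.290) followed in the same order as in the controls, with Phka2 and Gyg overlapping.

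Ratios between genes of the same liver do not depend on how libraries are scaled. They were chosen after the values were seen and were not tested. The ratio of branching enzyme to synthase, Gbe1 to Gys2 in FPKM, was 0.727, 0.551 and 0.593 in control livers and 0.372, 0.367 and 0.136 in Cre livers. All 3 Cre livers were lower, including Cre 1, which overlapped the controls in Gbe1 alone. The ratio of phosphorylase to synthase, Pygl to Gys2, was 1.63, 1.43 and 1.83 against 1.32, 1.39 and 0.580. The groups were apart here too, though Cre 2 was only just below GFP 2. Gbe1 to Pygl was 0.447, 0.386 and 0.324 in control livers and 0.283, 0.264 and 0.235 in Cre livers, so Gbe1 was the lower even relative to Pygl. The ratios of Ugp2 to Gys2, of Ugp2 to Pygl and of Ppp1r3b to Ppp1r3c overlapped between the groups. The ratios whose groups were apart all come from Gbe1, Pygl and Gys2, so they are not separate observations. The share of ratios apart over all pairs of genes was not computed. For single genes in CPM, 13.0% were apart on the lower side.

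**Figure D2:**
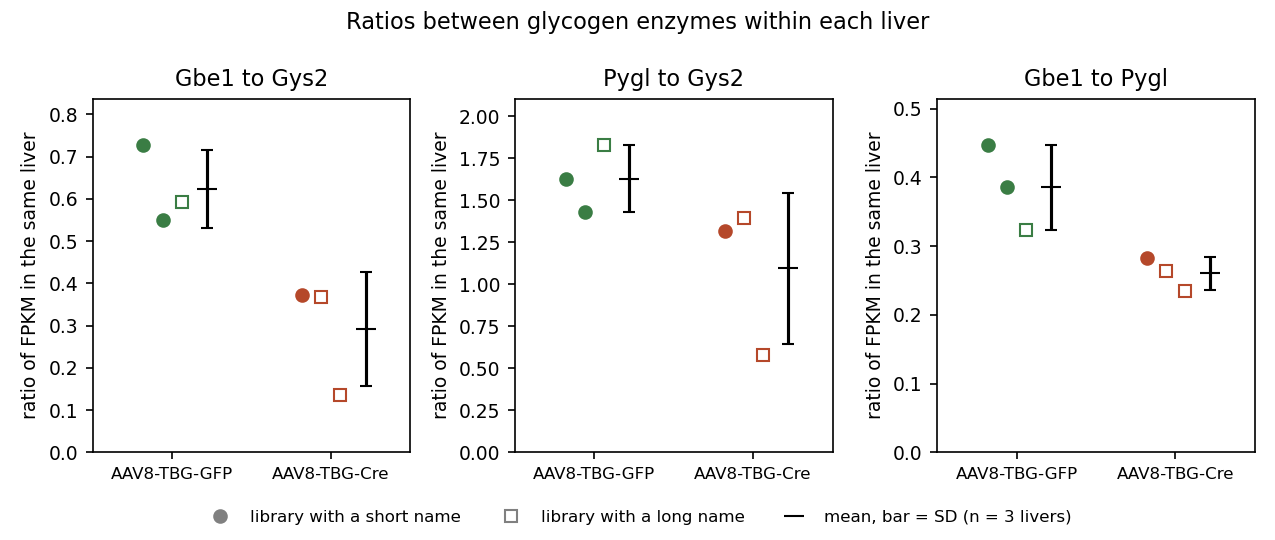
Ratios of FPKM between glycogen enzyme genes within each liver, one panel per ratio, with filled circles for short and open squares for long library names and the black mark and bar for the mean and SD (n = 3 livers). In each panel all 3 Cre livers lie below the 3 control livers, with the widest gap for Gbe1 to Gys2. Only ratios whose groups did not overlap are shown, and the other ratios computed overlapped. The panels share Gbe1, Pygl and Gys2 and are not separate observations.

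The other genes of glycogen metabolism were read from the same fit. Of 23 such genes, 20 had enough counts to be tested, and Phkg1, Ppp1r3a and Ppp1r3d did not. At that same threshold, 2 of the 20 were higher (Pygb and Gys1) and 3 lower (Epm2a, Gsk3a and Phkb), against 12.0% and 8.41% of all genes tested. Pygb alone passed an adjusted p-value of 0.05 in edgeR, against 0.931% of all genes. Their median log2 fold change was -0.02, with 9 positive and 11 negative values.

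**Figure D3:**
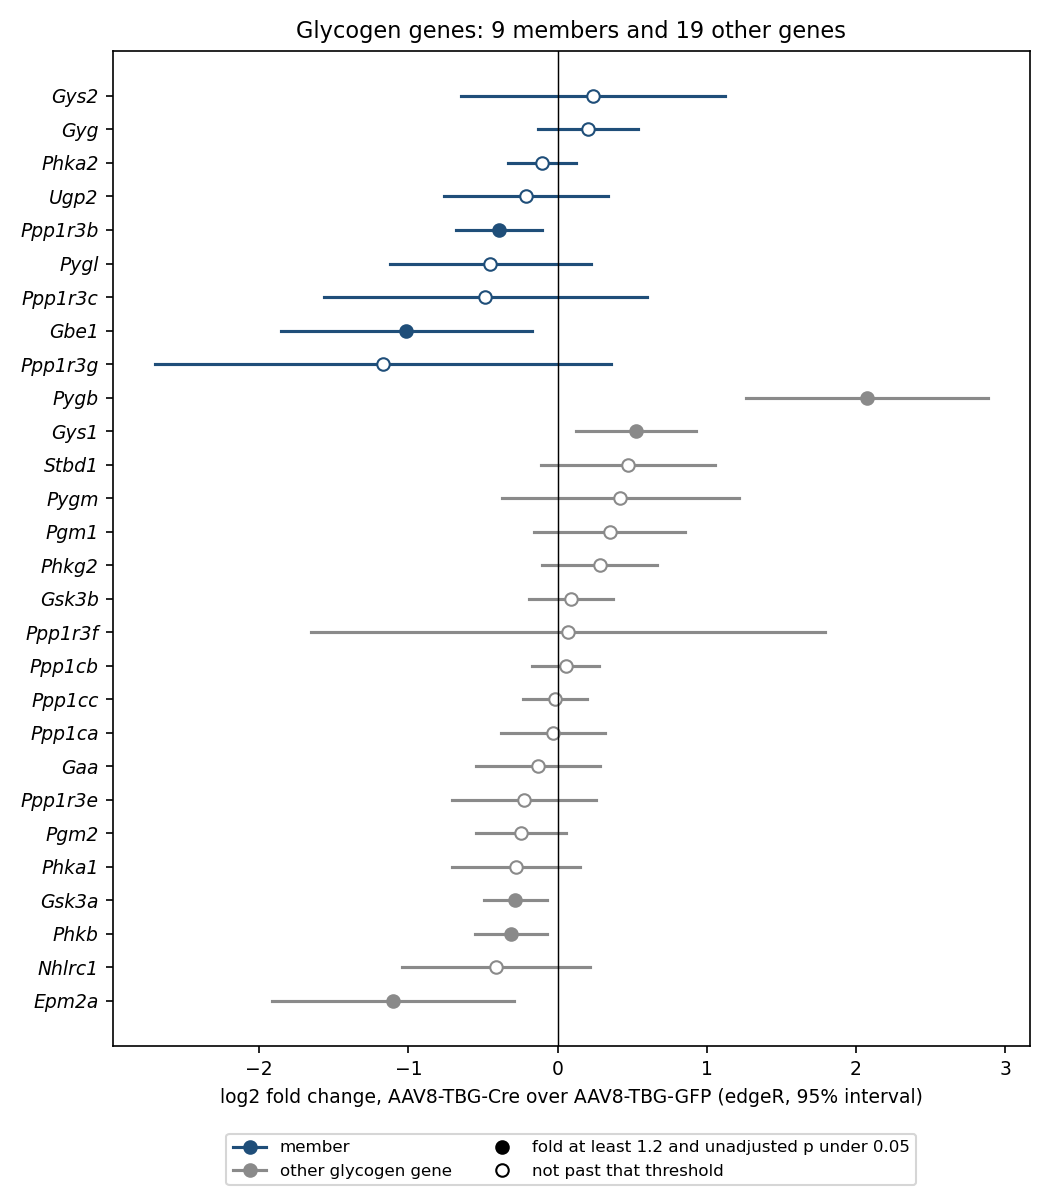
Log2 fold change of Cre over control livers with its 95% interval from edgeR for the 9 members (blue) and 19 of the 20 other glycogen genes tested (grey); filled points passed the threshold of the study. Gbe1 and Ppp1r3b are the filled members, both lower, and Pygb at 2.08 is the highest of all genes shown.

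Pygb encodes the brain isozyme of glycogen phosphorylase, the counterpart of Pygl. It had 5.23, 3.83 and 3.25 CPM in control livers and 12.9, 26.8 and 12.2 CPM in Cre livers. All Cre livers were higher than any control, as for 14.0% of all genes tested in CPM, and Cre 2 was the highest. The mean rose from 4.10 ± 1.02 (SD, n = 3) to 17.3 ± 8.22 CPM (SD, n = 3), for a log2 fold change of 2.08 (standard error 0.35, edgeR adjusted p = 0.0460). It passed the unadjusted threshold in all 18 alternatives, but kept its adjusted call only without Cre 1 (0.0278) among the fits that left out 1 liver, with adjusted values of 0.0766 to 0.191 in the other 5. Pygb took 0.823, 0.554 and 0.706% of the FPKM of the 3 phosphorylase genes in control livers and 2.00, 8.02 and 3.30% in Cre livers. Pygl nevertheless made up 91.3% or more of it in every liver. Gys1, the muscle isozyme of synthase, had 3.80 ± 0.372 CPM (SD, n = 3) in control and 5.47 ± 0.346 CPM (SD, n = 3) in Cre livers, a log2 fold change of 0.53 (edgeR adjusted p = 0.150). It was not past the threshold without GFP 2 (0.50), GFP 3 (0.46) or Cre 3 (0.47). Its share of synthase FPKM overlapped between groups, at 0.800% to 1.45% and 0.991% to 2.48%.

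Markers of some other liver cells were also higher in Cre livers, but not those of endothelial cells. The counts below stand against 12.0% of all genes tested that were higher and 8.41% that were lower. All 7 markers of cholangiocytes, the cells of bile ducts, were higher at the unadjusted threshold, and their summed level was 49.8 to 103 CPM in control and 271 to 540 CPM in Cre livers. For macrophages and Kupffer cells 4 of 6 markers were higher (138 to 172 against 237 to 413 CPM), and for stellate cells and fibroblasts 3 of 6 (181 to 268 against 359 to 773 CPM). Cre 2, the highest liver for Pygb, was also the highest for the summed markers of all 3 lists. Of 6 endothelial markers, 0 were higher and 1 lower (122 to 188 against 123 to 147 CPM), and 3 of 4 neutrophil markers were higher and 1 lower (10.1 to 10.4 against 13.0 to 16.7 CPM). Of 5 skeletal muscle markers, which bear on Gys1, Ckm, Myh4 and Tnnt3 had no count in any library, and the rest summed to 0.254 to 0.722 CPM. Of the T and NK cell markers 1 of 2 tested was higher, with Trbc2 at no count (1.31 to 2.04 against 1.81 to 5.01 CPM), and 0 of 1 tested adipocyte marker passed (0.663 to 1.31 against 1.19 to 1.96 CPM). The part of these cells in the levels of Pygb and Gys1, or in the lower Gbe1 and Ppp1r3b, was not tested.

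**Figure D4:**
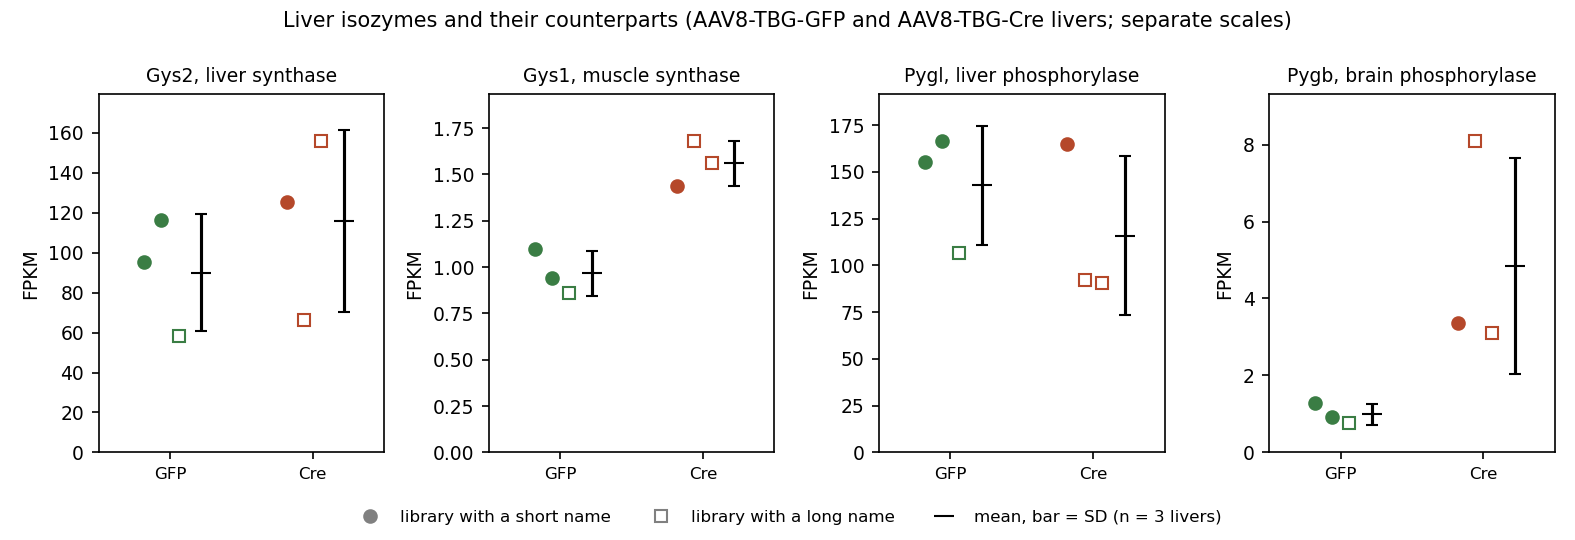
FPKM of the liver isozymes Gys2 and Pygl and of their counterparts Gys1 and Pygb in each liver, on separate scales, with filled circles for short and open squares for long library names and the black mark and bar for the mean and SD (n = 3 livers). Gys1 and Pygb are higher in all 3 Cre livers than in the controls, while Gys2 and Pygl overlap. Of all genes tested on FPKM, 23.1% were higher in every Cre liver than in any control.

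Among the 3 lower genes of the list, Epm2a encodes laforin, a phosphatase of glycogen. It fell from 1.92 ± 0.214 (SD, n = 3) to 0.894 ± 0.363 CPM (SD, n = 3), for a log2 fold change of -1.10 (edgeR adjusted p = 0.138). Gsk3a encodes a kinase that inactivates glycogen synthase and fell from 83.2 ± 0.597 to 68.4 ± 2.67 CPM (SD, n = 3 each, log2 fold change -0.28, edgeR adjusted p = 0.145). Phkb, the gene of the beta subunit of phosphorylase kinase, fell from 24.0 ± 0.414 to 19.3 ± 1.69 CPM (SD, n = 3 each, log2 fold change -0.31, edgeR adjusted p = 0.152), whereas Phka2 of the same complex did not pass. Like Ppp1r3b, Gsk3a and Phkb had a small spread among control livers and were not past the threshold on library totals or FPKM, nor was Gsk3a without Cre 2 (log2 fold change -0.26) or Phkb without GFP 2 (-0.30) or Cre 3 (-0.25). Ppp1r3b made up 78.7% to 91.8% of the FPKM of the 7 targeting subunit genes over the 6 livers, and its share overlapped between groups.

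Liver glycogen genes respond to feeding and to the hour of the day, and the feeding state at collection is not given in the sources used here. Of 6 genes that feeding induces, 0 passed the threshold in either direction, and 5 had a negative and 1 a positive log2 fold change (median -0.44). Their summed level was 1627, 1219 and 764 CPM in control livers and 1356, 680 and 1068 CPM in Cre livers. It was lowest in Cre 2 and GFP 3, the livers with the lowest Gys2 and Ugp2. The match did not hold at the top, since Gys2 was highest in Cre 3 and this sum in GFP 1. Of 9 genes that fasting induces, 2 were lower, G6pc and Angptl4, and of 12 clock genes 1 was lower, Cry1. In each list 0 were higher. Of all genes tested, 8.41% were lower and 12.0% higher. The fasting-induced genes summed to 10428, 9247 and 11558 CPM in control livers and 9607, 7868 and 9749 CPM in Cre livers. Cre 2 was thus the lowest liver for this sum too, whereas GFP 3 was the highest. The part of feeding or the clock in the members' levels was not tested.

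The genes most like a member were those whose log2 CPM, centred on its own mean, differed least from the member's over the 6 livers, among 7877 genes with a mean of at least 10 CPM. For Pygl they were Ugt2a3, Slco2b1 and Echdc1, with root mean square differences of 0.04, 0.07 and 0.08 on the log2 scale, where the spread of Pygl itself was 0.44. For Gys2 they were Egfr, Srd5a1 and Nnmt (0.17, 0.18 and 0.21 against 0.53). For Ppp1r3b they were 4933409K07Rik, Tmem19 and Fam107b (0.03, 0.04 and 0.04 against 0.21). The nearest genes to Gys2 thus followed it less closely than those of the other two followed them. These are descriptions over 6 livers that share library and scaling.

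**Figure D5:**
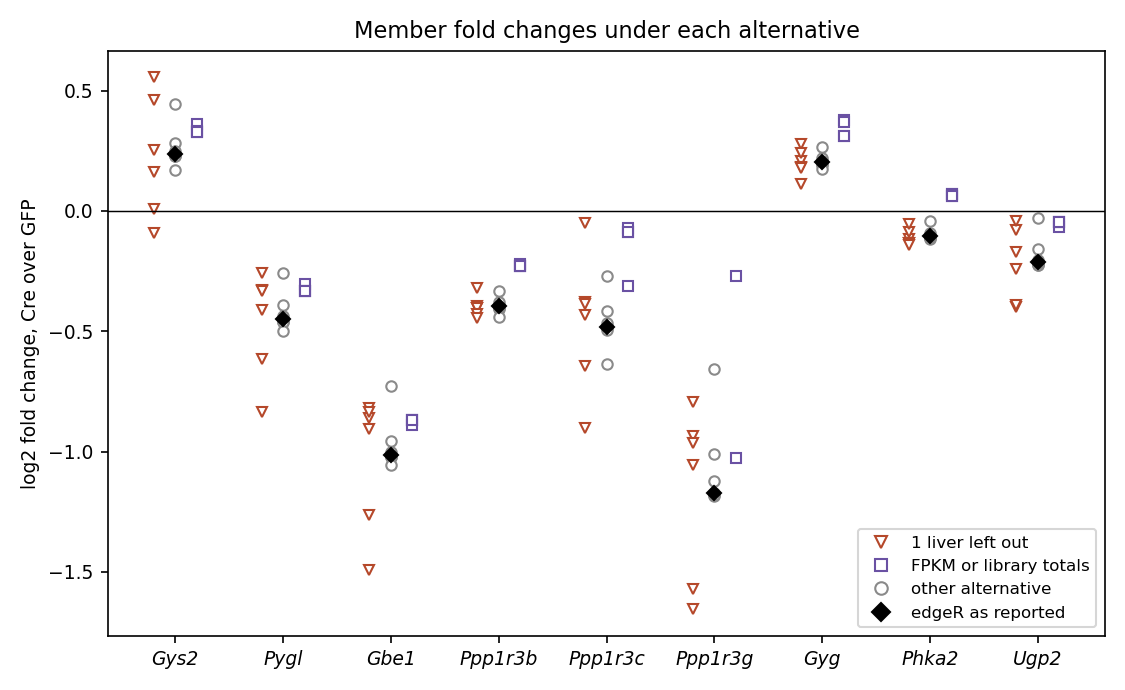
Log2 fold change of each member, Cre over control, as reported (black diamonds), with 1 liver left out (triangles), on FPKM or library totals (squares) and in the other alternatives (circles). Gbe1 and Ppp1r3b stay below 0 in all, Gbe1 between -1.49 and -0.73 and Ppp1r3b between -0.45 and -0.22, while Gys2 and Phka2 cross 0.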

How the data were processed

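Liver RNA-seq covered 6 mice, 3 per vector, grouped by the vector in the sample titles. The authors deposited expected counts per transcript, which are estimated fragment numbers without normalization, and FPKM per transcript and per gene, rounded to 2 decimals. The submitters' processing notes name HISAT2, Bowtie2, RSEM and mm10, whereas the methods of the study name STAR, HTSeq and DESeq2, all without versions. Transcripts carry RefSeq identifiers and genes NCBI gene IDs.

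Expected counts were summed per NCBI gene ID and rounded. A transcript with no gene was left out. All pairs of replicates differed beyond sampling noise, with a chi-square per gene of 24.9 or more. Vectors were compared by quasi-likelihood in edgeR 4.0.16 (R 4.3.3, TMM, filterByExpr, vector as the only factor) on all genes, with p-values adjusted by the Benjamini-Hochberg method. Standard errors came from the quasi-F statistic. With 3 livers per group the smallest exact permutation p is 0.1. The alternatives used DESeq2 1.42.0, limma 3.58.1 on log2(FPKM + 1), filtered to an FPKM of 0.5 or more in 3 or more libraries or unfiltered, and on log2(FPKM + 0.1), other normalizations and filters, a fold of 1.5, the form of the library name, a replicate block, and leaving out each liver. Scaling by library totals was added after seeing the data. Fold changes on FPKM are on the log2(FPKM + pseudocount) scale, which understates those of low genes. SDs describe the spread between livers, and counting error adds to it for genes near 1 CPM. The 95% intervals are confidence intervals of the log2 fold change between groups, from its standard error.

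The members, the gene lists and the tests were chosen with earlier results of these data known. Besides the members, the text names every other glycogen gene past the threshold and, for Gys2, Pygl and Ppp1r3b, the 3 genes of nearest pattern. G6pc, Angptl4, Cry1 and markers without counts were named after their values were seen. Pgm1 and Pgm2 carry the symbols of the files, which the GRCm38.p6 table gives the other way round. Coordinates and promoters are from RefSeq on GRCm38.p6, the build of mm10. A reference on NCBIM37 was not used. One gene of the list is counted but not reported here.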

Additional observations from a re-analysis of the deposited data

How the results depend on the processing

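Over the 18 alternatives, 7 of the 9 members kept the sign of their log2 fold change in every fit that tested them, which for Ppp1r3g were 15. Phka2 turned to 0.070 on library totals, 0.062 with limma on log2(FPKM + 1), with or without its filter, and 0.070 on log2(FPKM + 0.1). Gys2 was -0.091 without Cre 3 and 0.56 without Cre 2. Relative to TMM, the median log2 fold change of all genes moved by 0.17 on library totals, 0.15 and 0.16 on log2(FPKM + 1) and log2(FPKM + 0.1), and 0.06 with upper quartile scaling. Higher genes made up 87.1%, 83.7%, 84.1% and 72.3% of the calls there, in place of 58.9%.

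At a fold of at least 1.2, 2 members, 3 other glycogen genes and 1130 genes in all were lower, and 0, 2 and 1618 higher. On library totals these were 1, 1 and 376 lower and 0, 4 and 2548 higher. On FPKM, log2(FPKM + 1) gave 1, 1 and 365 lower and 1 (Gyg), 4 and 1880 higher, log2(FPKM + 0.1) gave 1, 1 and 376 lower and 1, 4 and 1995 higher, and log2(FPKM + 1) with no filter gave 0, 1 and 364 lower and 1, 4 and 2019 higher. With upper quartile scaling 1 other glycogen gene and 737 genes were lower. DESeq2 called 3 other glycogen genes higher, as did edgeR with no filter on low counts. With a fold of at least 1.5, 1 member, 1 other gene and 407 genes were lower, and 1 other gene was higher. Leaving out 1 liver gave 1 to 3 members lower and 0 higher, 2 to 5 others lower and 1 to 3 higher, and 735 to 1713 genes lower and 1106 to 2016 higher.

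By the adjusted p-value 0 members, 1 other gene (Pygb) and 125 genes passed in edgeR, and 2, 1 and 1157 in DESeq2. The other glycogen genes had 0 such calls with RLE or upper quartile scaling, at least 10 counts in every library, the name form as a covariate, library totals and all 3 fits on FPKM. With the name form, 1 member (Gbe1) and 214 genes passed. All genes gave 66 such calls with upper quartile scaling, 372 with no filter, 76 with at least 10 counts, 10 on library totals, and 22, 27 and 9 on log2(FPKM + 1), log2(FPKM + 0.1) and log2(FPKM + 1) with no filter. Leaving out 1 liver gave 0 to 1 members, 0 to 1 others and 0 to 924 genes, with 0 genes without Cre 2 or GFP 2 and 924 without Cre 1. The cause was not tested.

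Whether replicate numbers pair the livers is not stated in the sources used here, and correlations among 3 livers per group cannot decide it. Deviations from the group means correlated by -0.006 between the livers numbered 1, -0.25 between those numbered 2 and 0.19 between those numbered 3, and number 3 alone correlated best with its own. With the replicate number as a block, 2 members and 3 other genes were lower and 0 and 4 higher, and 0, 0 and 7 passed the adjusted p-value. Depth limits Ppp1r3g, with 6 to 42 counts per library, more than any other member.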
